A study of Arabidopsis thaliana with 4 samples.

Results

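Regions of the Arabidopsis thaliana leaf methylome where the FLL library differed from both FLH and SQL were selected on the authors' own calls. A region, defined by chromosome, start, end and cytosine context, was taken when it was listed as a differentially methylated region (DMR) in both FLH vs FLL and SQL vs FLL, and in neither SQH vs SQL nor SQH vs FLH. Of 20095 distinct DMRs in the 4 comparisons, 1555 were listed in both FLL comparisons and 1261 met the whole rule (6.28% of all DMRs, 20.1% of the 6272 in FLH vs FLL and 14.9% of the 8479 in SQL vs FLL). These 1261 members comprised 506 CpG, 108 CpHpG and 647 CpHpH regions.

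Wild-type Col-0 plants were grown at 22°C before treatment and then moved to a cooler room. There they were acclimated to 1 of 4 light regimes, for 22 d by the sample labels. The regimes were SQH and SQL (square light of high or low intensity) and FLH and FLL (fluctuating light of high or low intensity). FLH therefore shared the fluctuating pattern with FLL and SQL shared the low intensity, while SQH shared neither. Leaf DNA of 6 plants per regime was pooled into 1 library and sequenced after bisulfite conversion, in which unmethylated cytosines are read as thymine. With 1 library per regime no difference has a replicate check, and both FLL comparisons rest on the same FLL reads, so a deviation of that single library or plant pool and a response to the regime cannot be told apart. The leaves were harvested in a fixed order of regimes with FLL last, which cannot be told apart from the regime either. By the paper's account the harvests lay only a few minutes apart, to limit any effect of sampling time. No region other than these DMRs was analysed here.

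In plants, cytosines are methylated in CpG, CpHpG and CpHpH contexts (H is A, C or T) by different enzymes. MET1 copies CpG methylation after replication, CMT3 maintains CpHpG methylation together with methylated histone H3, and CMT2 and the RNA-directed DNA methylation (RdDM) pathway maintain CpHpH methylation, the latter guided by small RNAs. Methylation in all 3 contexts is typical of transposable elements (TEs), whereas many expressed genes carry CpG methylation alone in their bodies.

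The 5 regions below lead their context and side under the naming rule, except that for CpG with FLL above the second is shown because the first lies in an untranslated exon. CpG regions with FLL below are shown further on, in CLSY1. The rule took members with at least 8 reads per cytosine in FLL, FLH and SQL and ranked them by the smaller of both differences from FLL. They are given as the plus strand of the TAIR10.1 RefSeq sequence. Capitals mark the cytosines of the context that was counted, a capital G standing for a cytosine on the minus strand. In CpG and CpHpG both strands of a site are in capitals. The regions are chr1:6629101-6629250 in a coding exon of ARF19, chr1:15554401-15554550 in an ATHILA retrotransposon at the edge of the pseudogene AT1G41795, chr5:26788055-26788204 in an intron of AT5G67120, chr4:11932151-11932300 in the element ATTIR16T3A, and chr2:856901-857050 lying 176 bp upstream of PKS1.
ARF19, CpG, FLL above: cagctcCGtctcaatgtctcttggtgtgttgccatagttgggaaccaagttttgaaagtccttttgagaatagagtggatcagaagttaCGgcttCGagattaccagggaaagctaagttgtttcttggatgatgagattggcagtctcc
ATHILA, CpHpG, FLL above: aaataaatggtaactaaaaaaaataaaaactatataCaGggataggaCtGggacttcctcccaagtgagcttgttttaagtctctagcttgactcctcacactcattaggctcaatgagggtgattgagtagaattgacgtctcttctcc
AT5G67120, CpHpG, FLL below: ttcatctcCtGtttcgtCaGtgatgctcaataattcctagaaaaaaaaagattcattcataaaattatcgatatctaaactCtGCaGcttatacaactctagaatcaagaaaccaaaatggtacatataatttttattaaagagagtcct
ATTIR16T3A, CpHpH, FLL above: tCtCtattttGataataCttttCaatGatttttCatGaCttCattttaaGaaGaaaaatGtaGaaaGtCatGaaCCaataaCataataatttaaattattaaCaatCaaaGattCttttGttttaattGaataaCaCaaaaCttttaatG
PKS1 upstream, CpHpH, FLL below: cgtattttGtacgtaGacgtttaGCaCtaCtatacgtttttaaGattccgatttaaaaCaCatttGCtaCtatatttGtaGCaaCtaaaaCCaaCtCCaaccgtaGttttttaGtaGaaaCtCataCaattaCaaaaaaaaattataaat
The printed CpG region holds 6 counted cytosines, the CpHpG regions 4 and 8, and the CpHpH regions 30 and 28. The number of cytosines that a level averages thus differed by context, which also set how many reads stood behind it. The median member was covered by 69 reads in FLL in CpG, 84 in CpHpG and 280 in CpHpH, where a read that spans several cytosines is counted once for each.

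FLL was above both other libraries at 776 members (61.5%) and below both at 483 (38.3%), and the side differed by context. In CpG, FLL was below both at 344 of 506 members (68.0%, 95% Wilson interval 63.8 to 71.9) and above both at 162. In CpHpG it was above both at 86 of 108 (79.6%, 71.1 to 86.1), and in CpHpH at 528 of 647 (81.6%, 78.4 to 84.4), against 117 below both and 2 between FLH and SQL. These sides come from the reads that chose the members and are a description, with no test. All intervals cover counting error only.

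Median methylation levels, as methylated over total reads of a region, gave the size of these differences. At the CpG members below both, the median level was 0.51 in FLL, 0.79 in FLH and 0.80 in SQL, and at those above both it was 0.44, 0.13 and 0.14 in the same order. In CpHpG the medians were 0.62, 0.32 and 0.32 where FLL was above and 0.29, 0.59 and 0.61 where it was below. In CpHpH they were 0.29, 0.15 and 0.14 above and 0.13, 0.29 and 0.30 below. The smaller of the 2 differences had a median of 0.24 (CpG), 0.25 (CpHpG) or 0.12 (CpHpH), all close to the caller's minima of 0.2, 0.2 and 0.1.

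**Figure D1:**
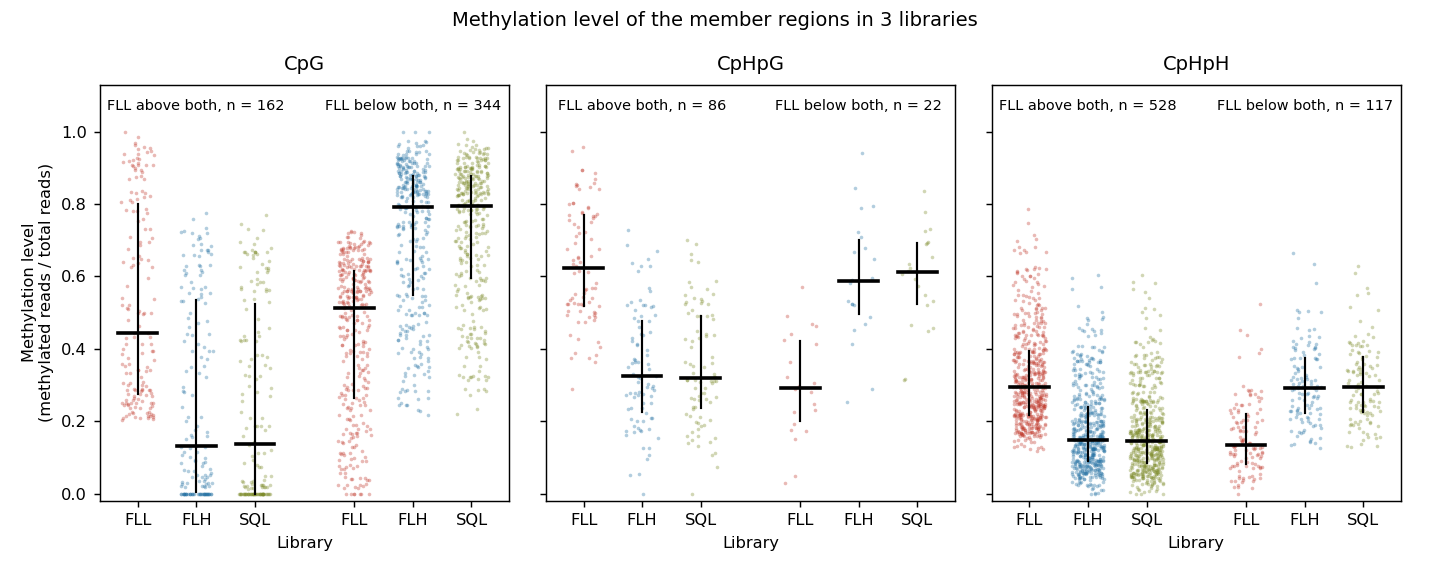
Methylation level (methylated reads over total reads, vertical axis) of every member in the FLL, FLH and SQL libraries, split by context and by the side of FLL. Each point is a region, thick lines are medians and thin lines span the quartiles; the FLH and SQL columns sit at nearly equal heights, and many of the 162 CpG regions with FLL above lie at or near 0 in both.

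Of the authors' calls, the DMRs of FLH vs FLL covered 0.405% of the genome's 150 bp bins that hold 4 or more CpG cytosines, 0.128% of those for CpHpG and 0.422% of those for CpHpH. The corresponding shares in SQL vs FLL were 0.621%, 0.227% and 0.498%. How many of these bins had enough reads to be tested is not known here, so the shares are lower limits, and since the rule used both contrasts nothing is read from them. In the 2 parent tables FLL was the higher library at 51.3% (FLH vs FLL) and 22.4% (SQL vs FLL) of CpG DMRs, 62.2% and 82.8% of CpHpG DMRs and 65.5% and 73.3% of CpHpH DMRs.

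The members just inside the minima show how narrow the border was. A CpG region at chr2:4953851-4954000 entered with 0.52 in FLL, 0.74 in FLH and 0.72 in SQL, a smaller difference of exactly 0.20. Just under the minimum, chr2:18418751-18418900 had 0.31 in FLL, 0.11 in FLH and 0.07 in SQL. Its FLL to FLH difference was 0.1995, and it was listed in SQL vs FLL but not in FLH vs FLL. It was also listed in SQH vs FLH, so the rule excluded it in any case. In CpHpG the closest member had 0.76, 0.56 and 0.51 in FLL, FLH and SQL, and in CpHpH 0.19, 0.08 and 0.09. A CpHpH region with 0.17, 0.07 and 0.07 was not listed in FLH vs FLL, and it too was listed in SQH vs FLH. Among the regions of 1 FLL table that a second table also gave the third level for, 543 missed the other FLL table, 479 of them through a difference under the minimum and 64 with a difference at or over it.

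Whether FLH and SQL themselves differed at the members was not a comparison of the study, but both libraries were read at every one. Their levels differed by a median of 0.027 in CpG, 0.032 in CpHpG and 0.022 in CpHpH. In Fisher's exact test (two-sided, methylated against unmethylated reads, Benjamini-Hochberg adjustment over all 1555 regions listed in both FLL comparisons), 32 of 1261 members passed 0.05 (3 CpG, 1 CpHpG and 28 CpHpH), or 2.54% (95% Wilson interval 1.80 to 3.56). The share over all 1555 tested was 4.63%, and among the 294 that were dropped for also appearing in an SQH comparison it was 13.6% (10.2 to 18.0). At an unadjusted p under 0.05 there were 114 members (9.04%). The test compares 2 libraries and counts a read once per cytosine; with the mean reads per cytosine in place of the sum, 0 members passed and 0 had an unadjusted p under 0.05. At about 8 to 10 reads per cytosine such a test has little reach, and the members were picked so that both libraries lie apart from the same FLL value, so a small difference between them is partly built in. The 294 were dropped on calls that used the same FLH and SQL reads. Their higher share than that of the members is therefore partly built in too.

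**Figure D2:**
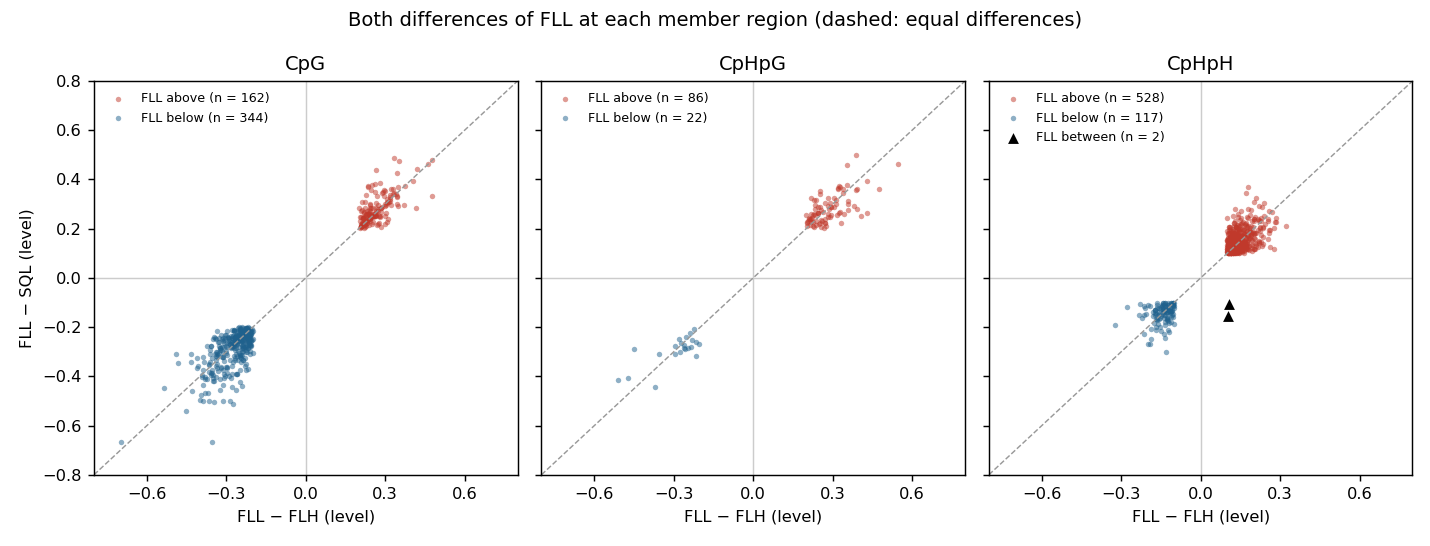
Difference in methylation level of FLL from FLH (horizontal axis) and from SQL (vertical axis) at each member, by context, with the dashed line marking equal differences. Points in the lower left have FLL below both (344 in CpG) and points in the upper right FLL above both (528 in CpHpH); the empty band around 0 is the caller's minimum difference, and the 2 triangles are the regions where FLL lay between.

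At 2 CpHpH regions all 3 libraries stood apart, with FLL between the others. The region chr2:2148401-2148550, 186 bp past the end of the gene AT2G05720, had 41 of 245 reads methylated in FLL (0.17), 11 of 171 in FLH (0.06) and 70 of 217 in SQL (0.32). FLH and SQL differed there by 0.26 (Fisher's exact test, adjusted p = 1.2e-08). For such regions the description that FLL alone stands apart does not hold. The test counts a read once per cytosine. With the mean reads per cytosine in its place, no member had an unadjusted p under 0.05.

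SQH has no reads at the members themselves, because their absence from both SQH tables was part of the rule. Some SQH levels are known from DMRs with other borders. In the same context, 27 members overlapped an SQH region (17 in SQH vs SQL and 21 in SQH vs FLH), and at 24 of them SQH lay on the same side of SQL or FLH as FLL did, at 2 on the opposite side and at 1 on both. In another context 38 members had such a neighbour, with SQH on FLL's side at 21 and opposite at 17. At those 24 regions FLL may therefore not have been the single library to lie on its side. The SQH levels belong to the other borders, and SQH at the members themselves is not known. The absence from SQH vs SQL says little in CpG, since the smallest CpG difference listed in that table was 0.402, against 0.2 in the other 3.

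The widest member shows this. It spanned 1200 bp of a HELITRON1 element, a rolling-circle transposon, at chr1:28515001-28516200, across the small gene AT1G75945. Over its 98 CpG cytosines 444 of 885 reads were methylated in FLL (0.50, 0.47 to 0.53), 756 of 847 in FLH (0.89) and 690 of 769 in SQL (0.90). FLL was thus far below both, while FLH and SQL differed by 0.005 (Fisher's exact test, adjusted p = 1). However, SQH vs FLH lists 600 bp and 300 bp of the same element with SQH at 0.61 (383 reads) and 0.63 (317 reads), so SQH was also low there. CpHpG methylation of the element was lower in FLL too, at 0.22 (276 reads) against 0.46 (306 reads) in SQL over 600 bp, and at 0.32 against 0.55 in FLH over 150 bp.

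The remaining members were narrow, with 1223 regions of 150 bp, 35 of 300 bp and 2 of 450 bp, and lay far apart. Joining members of 1 context within 1 kb gave 1231 clusters, of which 29 held more than 1 member and none more than 3. Members fell on all 5 nuclear chromosomes (306, 240, 278, 180 and 257 on chromosomes 1 to 5).

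CpG members with FLL above both were mostly genic. Of the 162, 45 lay in a gene without a TE and had a mean of FLH and SQL under 0.1, and a further 32 such genic regions had a mean between 0.1 and 0.5. Together with 18 TE regions and 12 that the tables assign to neither, the 45 make 75 regions (46.3%) where FLL had a median of 0.27 against a median of 0 in both FLH and SQL. At the other end, 42 regions had a mean of 0.5 or more, with medians of 0.91 in FLL against 0.64 and 0.63.

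Under the naming rule, the first CpG region with FLL above was in an untranslated exon of AT1G28630 (chr1:10060951-10061100), where 21 of 41 reads were methylated in FLL (0.51, 0.36 to 0.66), 2 of 39 in FLH (0.05) and 2 of 42 in SQL (0.05). The next was in a coding exon of ARF19 (AT1G19220), an auxin response factor that activates auxin-induced genes. It had 36 of 69 reads methylated in FLL (0.52), 5 of 50 in FLH (0.10) and 4 of 50 in SQL (0.08). The third was in a coding exon of HK5 (AT5G10720, chr5:3387455-3387604), a histidine kinase of hormone and hydrogen peroxide signalling, with 22 of 41 reads in FLL (0.54), 7 of 54 in FLH (0.13) and 10 of 70 in SQL (0.14). The distance of FLL at these 3 regions follows from how they were chosen. FLH and SQL differed by at most 0.02 (Fisher's exact test, adjusted p = 1 at each).

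CpG members with FLL below both were more often in TEs and started from high levels. At 281 of the 344 the mean of FLH and SQL was 0.5 or more, and there FLL had a median of 0.56 against 0.83 in both others. Of these 281, 146 lay in TEs and 90 in genes without a TE. At 33 of the 63 regions with a lower mean FLL was under 0.1.

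Among well-covered CpG members, the second with FLL below, a BRODYAGA2 element at chr3:11219951-11220100, had 11 of 70 reads methylated in FLL (0.16), 28 of 46 in FLH (0.61) and 23 of 33 in SQL (0.70). The third, in the Mutator-like element ATMUN1 at chr2:8451551-8451700, lay 1500 bp upstream of LBD8, a gene of the lateral organ boundaries domain family, with 24 of 82 reads in FLL (0.29), 53 of 64 in FLH (0.83) and 48 of 65 in SQL (0.74). FLL was the low library in both elements, as their choice required, and the intervals of FLH and SQL overlapped.

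Of the 22 genes of DNA methylation and demethylation that were listed for naming, CLSY1 and CMT3 held members. Both are themselves part of the machinery. CLSY1 (AT3G42670, named CHR38 in RefSeq, chr3:14755798-14760629, minus strand) is a chromatin remodeler that recruits RNA polymerase IV in RdDM, and CMT3 (AT1G69770) is the CpHpG methyltransferase. A further 3 of the 22, MET1, NRPD2 and AGO4, had a DMR in SQL vs FLL without a member. The share of all genes with a DMR in that comparison was not counted, so no excess is read from these counts. The list was chosen with earlier results of these data known. Over all genes, members named 476 loci, including 261 of 27444 protein-coding genes (0.951%).

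CLSY1 was the single gene with 3 members, all CpG regions in its coding exons with FLL below both. Their sequences are shown because the 3 regions lie along 1 gene, with CpG sites in capitals. Region a is chr3:14756501-14756650, region b chr3:14758451-14758600 and region c chr3:14759351-14759500.
CLSY1 region a: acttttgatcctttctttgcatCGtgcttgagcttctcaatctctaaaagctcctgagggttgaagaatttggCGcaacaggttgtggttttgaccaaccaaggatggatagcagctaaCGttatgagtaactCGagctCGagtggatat
CLSY1 region b: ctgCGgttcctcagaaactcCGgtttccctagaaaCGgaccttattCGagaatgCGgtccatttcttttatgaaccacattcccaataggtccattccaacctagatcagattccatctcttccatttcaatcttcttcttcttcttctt
CLSY1 region c: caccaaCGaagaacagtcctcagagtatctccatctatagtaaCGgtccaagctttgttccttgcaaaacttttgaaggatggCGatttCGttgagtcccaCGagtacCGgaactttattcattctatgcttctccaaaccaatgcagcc
In region a, with 10 cytosines, 16 of 90 reads were methylated in FLL (0.18, 0.11 to 0.27), 50 of 114 in FLH (0.44) and 52 of 125 in SQL (0.42). In region b, also with 10 cytosines, they were 80 of 120 in FLL (0.67), 73 of 79 in FLH (0.92) and 102 of 117 in SQL (0.87). In region c, with 12 cytosines, they were 35 of 131 in FLL (0.27), 64 of 123 in FLH (0.52) and 79 of 154 in SQL (0.51). FLL was thus lower by 0.21 to 0.26 at all 3, and FLH and SQL differed by 0.007 to 0.052 (Fisher's exact test, adjusted p = 1 at each). The gene was not lower in FLL throughout, because SQL vs FLL also lists chr3:14757101-14757250, where FLL (0.54, 102 reads) was above SQL (0.31, 94 reads).

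CMT3 held 1 member, at chr1:26249701-26249850 in a coding exon. Its 4 CpG cytosines had 8 of 42 reads methylated in FLL (0.19, 0.10 to 0.33), 22 of 40 in FLH (0.55) and 34 of 58 in SQL (0.59). SQL vs FLL lists a further CpG region in the gene, chr1:26250301-26250450, where FLL (0.47, 107 reads) was also below SQL (0.71, 107 reads). Transcript levels were not analysed here. None of the 20 genes of light perception and photoprotection on the second list held a member, where 0.951% of all protein-coding genes did. A DMR in FLH vs FLL was listed for 2 of the 20, and the share of all genes with one was not counted. The loci MCCA and AT1G27880, which the paper singled out, held no member either. Each had 1 DMR between SQL and FLL and 1 between SQH and FLH, but 0 between FLH and FLL. A member must be listed in FLH vs FLL, so the rule itself left both loci out and nothing is read from their absence.

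CpHpG members were the fewest and lay mostly in TEs. Of 108, 75 (69.4%) were in TEs, among them 34 in Gypsy families (FLL above both at 28) and 11 in Copia families (above at all 11). The first region, in an ATHILA element, had 32 of 40 reads methylated in FLL (0.80, 0.65 to 0.90), 14 of 34 in FLH (0.41) and 19 of 43 in SQL (0.44). The second, at chr2:7490501-7490650 and 302 bp upstream of the receptor-like kinase gene Kin3, was outside any TE and nearly unmethylated in the other libraries, with 18 of 48 reads in FLL (0.38), 2 of 40 in FLH (0.05) and 0 of 45 in SQL (up to 0.08). The third, in HELITRONY1E at chr5:9042005-9042154, had 32 of 38 reads in FLL (0.84), 25 of 48 in FLH (0.52) and 27 of 56 in SQL (0.48). The widest CpHpG member, 300 bp of an ATLANTYS3 element at chr1:21509551-21509850, had 78 of 155 reads in FLL (0.50), 30 of 144 in FLH (0.21) and 42 of 195 in SQL (0.22).

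At 22 CpHpG members FLL was the low library. The first, in the intron of AT5G67120, had 24 of 97 reads methylated in FLL (0.25, 0.17 to 0.34), 43 of 82 in FLH (0.52) and 52 of 95 in SQL (0.55). An ATHILA4C element at chr3:12298151-12298300 had 11 of 64 in FLL (0.17), 30 of 64 in FLH (0.47) and 26 of 58 in SQL (0.45). A VANDAL6 element in the pseudogene AT5G35340, at chr5:13564805-13564954, had 21 of 109 in FLL (0.19), 34 of 75 in FLH (0.45) and 42 of 90 in SQL (0.47). The intervals of FLH and SQL overlapped at all of these regions, which were chosen for the distance of FLL.

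CpHpH members were mostly TE regions with FLL above both. Of 647, 475 (73.4%) were in TEs, and Helitron families made up 197 of them, with FLL above at 160 and below at 37. FLL was also above at most members in Mutator-like (53 of 67), Gypsy (46 of 53), LINE (22 of 27) and Copia (21 of 25) families, and at 145 of the 172 outside TEs. At the Helitron members above both, the median level was 0.31 in FLL, 0.16 in FLH and 0.14 in SQL, whereas the Gypsy members above had lower levels, 0.21, 0.09 and 0.09.

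The first CpHpH region, in ATTIR16T3A, lies 401 bp past the end of the cytochrome P450 gene CYP706A1. It had 122 of 290 reads methylated in FLL (0.42, 0.37 to 0.48), 51 of 282 in FLH (0.18) and 54 of 316 in SQL (0.17). The second, chr1:42301-42600, is outside any TE and 1284 bp upstream of UMAMIT28, an amino acid transporter gene, with 291 of 788 reads in FLL (0.37), 115 of 723 in FLH (0.16) and 33 of 727 in SQL (0.05). Here FLH and SQL also differed, by 0.11 (Fisher's exact test, adjusted p = 8.5e-11), and SQH vs FLH lists its left 150 bp with SQH at 0.13 and FLH at 0.27. That test counts a read once per cytosine, and with the mean reads per cytosine it gave no member an unadjusted p under 0.05. The third, at chr4:1757501-1757650, is in the long non-coding RNA locus AT4G04675, with 149 of 393 reads in FLL (0.38), 64 of 411 in FLH (0.16) and 72 of 411 in SQL (0.18). The widest CpHpH member, 450 bp of an ATREP3 Helitron at chr1:23876251-23876700, had 226 of 737 reads in FLL (0.31), 165 of 944 in FLH (0.17) and 98 of 621 in SQL (0.16). SQH vs SQL lists 150 bp within it, with SQH at 0.25 (227 reads) and SQL at 0.12, so SQH was above SQL there as FLL was.

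Of the 117 CpHpH members below both, the first lies upstream of PKS1, which encodes a phytochrome-binding protein that acts in phototropism. It had 73 of 300 reads methylated in FLL (0.24, 0.20 to 0.29), 124 of 302 in FLH (0.41) and 112 of 254 in SQL (0.44). PKS1 was not on the list of light genes and is named because its region ranked first. At chr3:8003351-8003500, 206 bp upstream of AT3G22580, the counts were 73 of 358 in FLL (0.20), 178 of 479 in FLH (0.37) and 106 of 286 in SQL (0.37). A HELITRONY1B element at chr1:17979001-17979150 had 36 of 196 in FLL (0.18), 62 of 177 in FLH (0.35) and 67 of 191 in SQL (0.35). FLH and SQL differed by at most 0.03 at all 3.

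**Figure D3:**
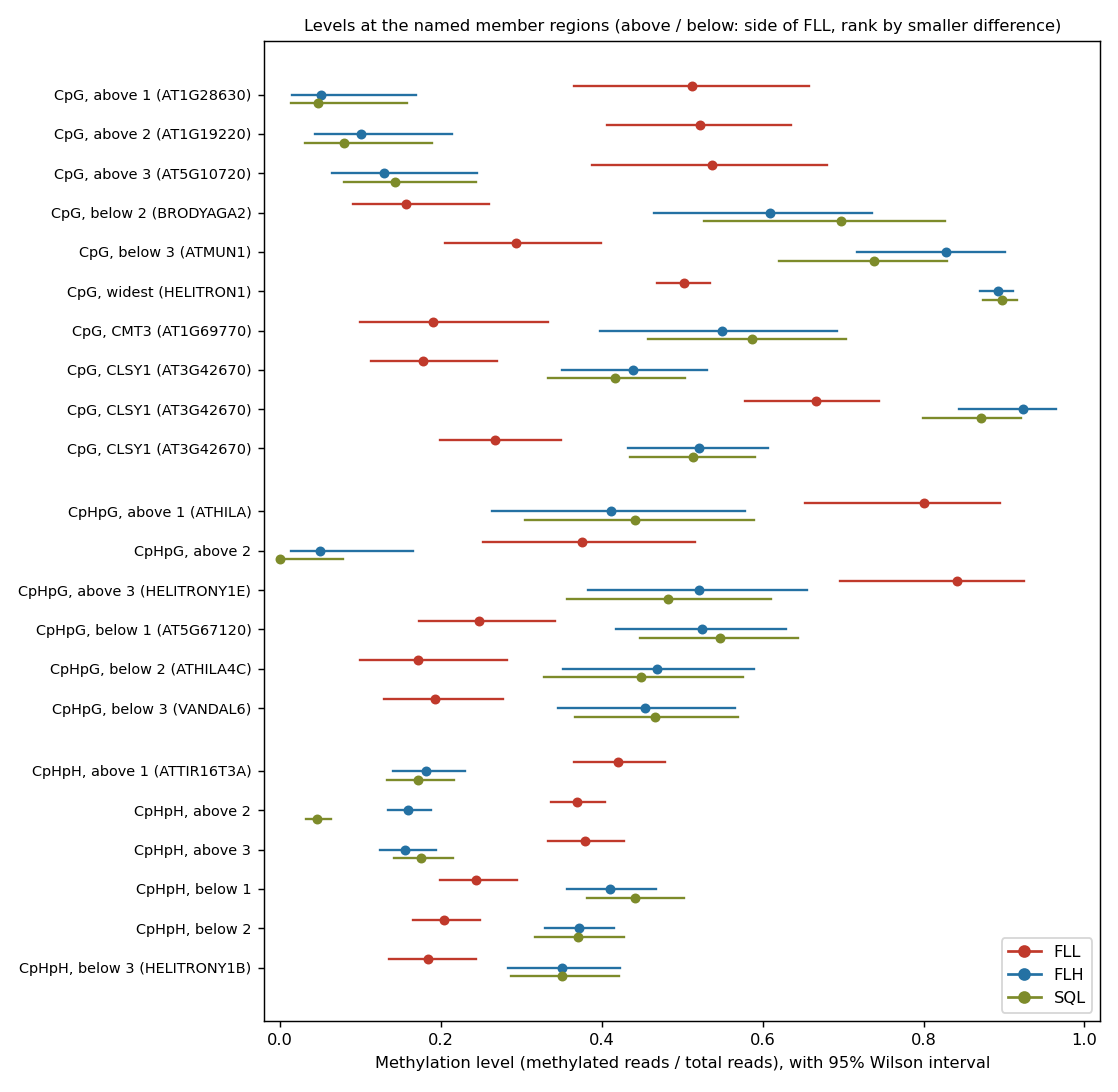
Methylation level (horizontal axis) with 95% Wilson intervals in FLL, FLH and SQL at most of the named members, grouped by context and labelled by the side and rank of FLL and by TE family or gene. The separation of FLL is built in by how the members were chosen, while among the lines drawn FLH and SQL overlap except at the second CpHpH region above, where SQL is at 0.05 and FLH at 0.16.

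The TE families with most members were ATREP3 (50), HELITRONY3 (32), ATGP1 (24), ATREP10D (23) and ATHILA6A (18), of 201 families named. ATREP3, HELITRONY3 and ATREP10D are Helitrons, which transpose by rolling-circle replication, and ATGP1 and ATHILA6A are Gypsy-type retrotransposons, which move through an RNA copy. In CpHpH, ATREP3 had 40 members, with FLL above at 32 and below at 8, HELITRONY3 had 23 (19 above), ATGP1 14 (9 above), and ATREP1 and ATREP10D 13 each (12 and 9 above). In CpG the largest were ATREP10D (10 members, FLL below at 6), ATLANTYS1 (8, below at 8), HELITRONY3 (8, below at 4), ATHILA2 (7, below at 6) and ATHILA4A (7, below at 5). At the ATLANTYS1 CpG members the median level was 0.65 in FLL, 0.88 in FLH and 0.93 in SQL. In CpHpG, ATHILA6A led with 7 members, FLL above at 6, with medians of 0.69, 0.45 and 0.49 in FLL, FLH and SQL. The next were ATGP1 (4, above at 3), ATHILA4C (4, above at 2), ATHILA2 (3, above at 3) and ATREP3 (3, above at 2). ATREP3 held 50 of 1261 members, against 257 of 6272 DMRs in FLH vs FLL and 275 of 8479 in SQL vs FLL. In the same order of comparisons HELITRONY3 had 139 and 202 DMRs, ATGP1 107 and 122, ATREP10D 89 and 135, and ATHILA6A 101 and 124. ATHILA2 had 173 and 202 DMRs but 15 members. The ranking of families was not tested against that of all DMRs. The number of copies in each family was not set against these counts.

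**Figure D4:**
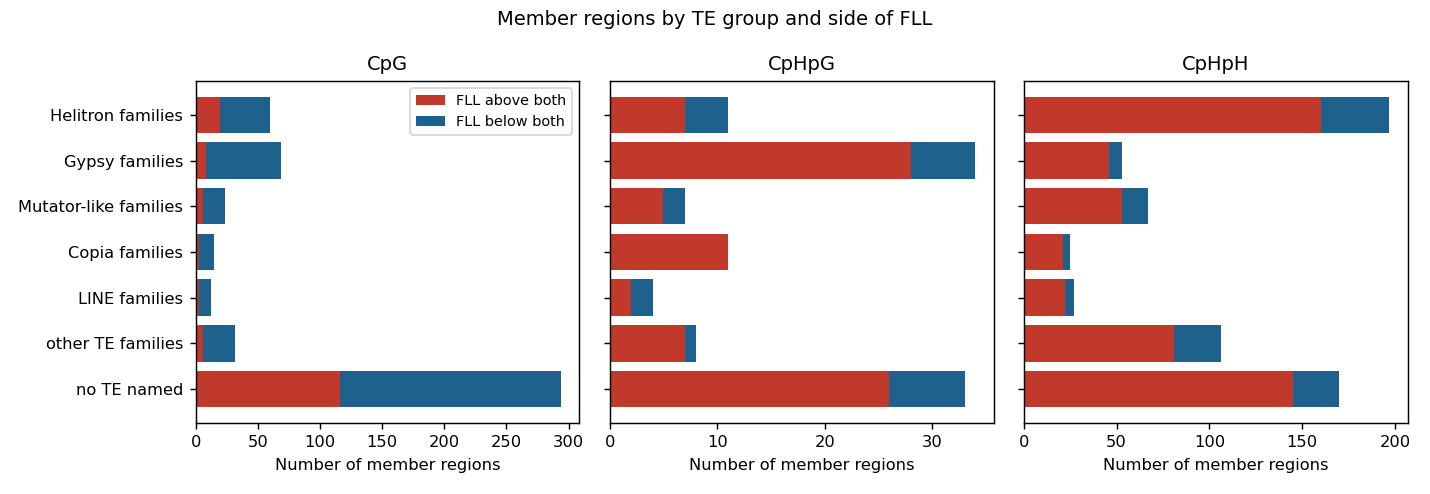
Number of members (horizontal axis, scaled separately in each panel) by group of TE families, stacked by the side of FLL, in CpG, CpHpG and CpHpH. In CpG the Gypsy bar is mostly FLL below both (61 of 69), whereas in CpHpG (28 of 34) and CpHpH (46 of 53) it is mostly FLL above both; the 2 regions with FLL between are not drawn.

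The side of FLL differed by context in most TE groups, and also outside TEs. Over all members FLL was below both at 68.0% in CpG and above both at 79.6% in CpHpG and 81.6% in CpHpH. Where no TE was named, it was below both at 178 of 294 in CpG and above both at 26 of 33 in CpHpG and 145 of 172 in CpHpH. LINE members in CpHpG were split, 2 above and 2 below. Gypsy families are given as an example. FLL was below both at 61 of 69 Gypsy members in CpG and above both at 28 of 34 in CpHpG and 46 of 53 in CpHpH. The VANDAL7 locus AT4TE25065, the single TE locus with 3 members, held both kinds. Its 2 CpHpH members had FLL at 0.27 and 0.25 against 0.16 and 0.15 in FLH and 0.12 and 0.11 in SQL, and its CpG member had 31 of 55 reads in FLL (0.56), 58 of 71 in FLH (0.82) and 83 of 104 in SQL (0.80). The contexts seldom met at 1 place, however. Where a region of another context overlapped a member in FLH vs FLL, FLL lay on the same side at 13 of 14 such regions for CpG members, 19 of 19 for CpHpG and 22 of 22 for CpHpH, and in SQL vs FLL at 11 of 12, 17 of 17 and 36 of 37. The opposite sides thus lay mostly at different places. These comparisons share the reads and library that chose the members.

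TEs held 41.9% of the CpG members (37.7 to 46.2), 69.4% of the CpHpG members (60.2 to 77.3) and 73.4% of the CpHpH members (69.9 to 76.7). Over all DMRs the shares were 50.8%, 76.3% and 77.7% in FLH vs FLL and 46.1%, 77.1% and 76.8% in SQL vs FLL. In CpG the share depended on the side, 28.4% (22.0 to 35.8) where FLL was above both and 48.3% (43.0 to 53.5) where it was below. The CpG regions with FLL higher had 51.7% in TEs in all of FLH vs FLL and 32.2% in all of SQL vs FLL. Coding exons held 38.3% of the CpG members above and 22.1% of those below, against 22.3% and 21.3% by side in FLH vs FLL and 36.3% and 21.8% in SQL vs FLL. In CpHpH, 30.3% of members lay within 1 kb upstream of a coding gene, against 25.1% of all regions of both tables, and 1.70% in coding exons.

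Pericentromeric windows, the gene-poor stretches around the centromeres that make up 14.7% of the nuclear genome, held 28.1% of the members in CpG (24.3 to 32.1), while CpHpG had 43.5% (34.6 to 52.9) and CpHpH 16.2% (13.6 to 19.3). Over all regions of both tables they held 37.4%, 53.7% and 19.5%. In CpG the share was 16.7% where FLL was above both and 33.4% where it was below. Among members with at least 8 reads per cytosine it was 17.1% in CpG and 9.66% in CpHpH, while in CpHpG it was 40.0% of 25 members. The part of depth was not tested.

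Sequence composition was near that of other DMRs of the same context. The median GC content of members was 38.0% in CpG, 38.7% in CpHpG and 30.0% in CpHpH, against 38.7%, 40.0% and 30.7% over all regions of both tables. Members held a median of 8 counted cytosines per 150 bp in CpG, 10 in CpHpG and 35 in CpHpH, as did all regions of both tables. CpG members above both had 6 and those below 8. CAA and CTA, the sequences that CMT2 is known to prefer, made up 32.4% of the CpHpH cytosines of CpHpH members and 31.5% of those of all CpHpH regions.

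Each of the other regimes can be set apart by the same rule, with 919 regions for FLH, 526 for SQL and 658 for SQH. Of CpHpH regions, the regime apart was above both others at 81.6% for FLL, 52.2% for FLH (47.7 to 56.6), 43.1% for SQL (38.5 to 47.8) and 73.8% for SQH (70.0 to 77.2). In CpHpG the share was 79.6% for FLL, 58.8% for FLH (49.1 to 67.9), 38.0% for SQL and 25.0% for SQH. In CpG it was 32.0% for FLL and 31.8% for FLH (27.0 to 37.0), while SQL and SQH had 23 and 6 CpG regions. Both of the latter sets require a listing in SQH vs SQL, where no CpG difference under 0.402 was listed. How far this set their numbers was not tested. The number of CpG regions was thus comparable between FLL and FLH alone. These intervals count regions of 1 library as independent and cover counting error only, so whether they overlap is no comparison of regimes. The shares also come from the reads that chose each set. FLL was the higher library at 65.5% and 73.3% of all CpHpH DMRs in FLH vs FLL and SQL vs FLL. The matching shares for the other sets are not given here. With 1 library each the difference between regimes was not tested. Median reads per cytosine in CpHpH were 8.06 for FLL, 7.70 for FLH, 7.80 for SQL and 6.56 for SQH, each in its own set of regions, and their part in these shares was not tested.

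**Figure D5:**
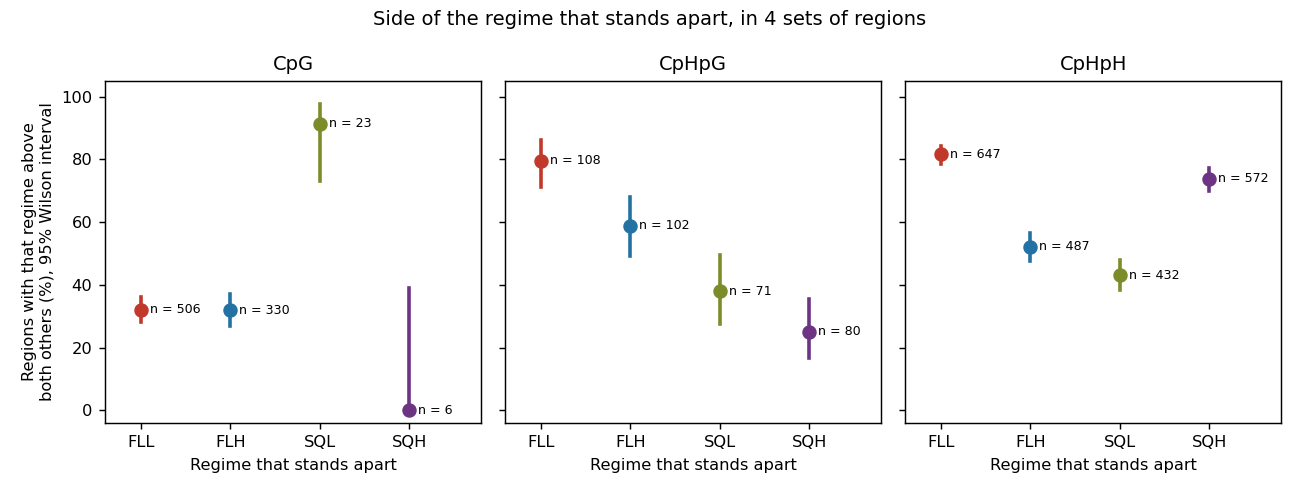
Share of regions (vertical axis, percent, with 95% Wilson interval) at which the regime that stands apart was above both of its comparators, for FLL, FLH, SQL and SQH in 3 contexts. FLL has the highest point in CpHpG (79.6%) and CpHpH (81.6%), and in CpG it sits beside FLH at 32.0%; SQL (n = 23) and SQH (n = 6) have few CpG regions.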

How the data were processed

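DNA of 6 plants per regime was sequenced as 1 whole-genome bisulfite library per regime. Per the labels and the study's methods, reads were trimmed with Trimmomatic 0.39 and aligned with Bismark (Bowtie2), and DMRs were called with DMRcaller in 150 bp bins (p-value threshold 0.01, at least 4 cytosines and 4 reads per cytosine, minimum difference 0.2 in CpG and CpHpG and 0.1 in CpHpH). The deposited counts give methylated and total reads per region, a sum made by the authors across its cytosines without normalization between libraries. The deposited fractions (proportions) equal these counts divided, and levels were recomputed from the counts. The p-values deposited by the authors were used as a filter in 1 alternative and are not reported. Columns of direction and of the authors' comparisons were not used, and 0 columns of samples were left unmapped.

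Duplicate lines of a region were merged, and gene, TE family and TE locus names are the authors'. The TE family name differed between both tables for 3.73% of members, where that of FLH vs FLL was used. TE groups were set by the start of the family name. The number of cytosines equalled that of the TAIR10.1 RefSeq sequence at 20093 of 20094 nuclear regions, and this build gave positions, sequences and annotation. A member's annotation is that at its midpoint, in the order coding exon, untranslated exon, intron, other locus, 1 kb upstream of a coding gene, intergenic. The pericentromere is the longest run of 500 kb windows holding under 0.5 times as many coding genes as the median window. Shares have Wilson 95% intervals. FLH and SQL were compared by Fisher's exact test (two-sided, on reads, Benjamini-Hochberg adjusted), which was tested on simulated data. The simulated reads were independent, so that check did not cover a read being counted once for each cytosine it spans. Analyses used Python with pandas 2.3.3 and SciPy 1.17.1.

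The members, the gene lists and the tests were chosen with earlier results of these data known. Named were, per context and side, the 3 members with the largest smaller difference where all 3 libraries had 8 or more reads per cytosine, the widest member per context, the member between FLH and SQL with the largest difference, loci with at least 3 members, the leading 5 TE families, and members in the listed genes. One region that the rule names is not reported here. Median depth of the members in FLL was 10 reads per cytosine in CpG, 8.17 in CpHpG and 8.06 in CpHpH. Alternatives were other matching rules between tables, stricter p-values, a common CpG minimum, a read minimum, clusters and another test.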

Additional observations from a re-analysis of the deposited data

How the results depend on the processing

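Of 57 alternative values, 29 stayed within 1.5 times a count or within the interval of a share, and 28 moved. The cause was not tested. A change of direction was not scored. The number of members depended most on the settings: a common CpG minimum of 0.4 left 11 CpG members and 766 in all, a p-value limit of 0.001 left 172 in CpG, 31 in CpHpG, 390 in CpHpH and 593 in all, and at least 8 reads per cytosine left 293, 25, 176 and 494. The share with FLL above both was 45.5% in CpG and 80.8% in all at the CpG minimum of 0.4, 87.1% in CpHpG and 68.0% in all at the p-value limit of 0.001, and 42.0% in CpG with at least 8 reads per cytosine. The share in TEs was 72.5% in all at the CpG minimum of 0.4, and 31.1% in CpG, 65.9% in CpHpH and 45.1% in all with at least 8 reads. The pericentromeric share with at least 8 reads was 17.1% in CpG, 9.66% in CpHpH and 15.6% in all, and with windows under 0.25 times the median number of genes it was 19.8% in CpG, 25.0% in CpHpG, 8.35% in CpHpH and 14.4% in all. The test of FLH against SQL called 16 of 494 members with at least 8 reads, and 0 with the mean reads per cytosine. No paired analysis was possible because each regime has 1 library, and for the same reason no replicate could be left out. Depth of about 8 reads per cytosine limits each single level.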
